A study of Mus musculus with 2 samples.

Results

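The antioxidant, glutathione and metallothionein genes are 41 mouse genes chosen by name for their roles in the NRF2 pathway, the glutathione and thioredoxin systems, the dismutation of superoxide and the binding of metals. The rule that chose them names genes and uses no measured value, although earlier results of these data were known at the time. They were read in LM8 cells, an osteosarcoma line of the mouse, in 2 stable transfectants: the hPHD4 clone carries a full-length cDNA of human PHD4 in the vector pcDNA3.1, and the control clone carries pcDNA3.1 alone. PHD4 is a prolyl hydroxylase of the endoplasmic reticulum membrane, of the same family as the oxygen-sensing hydroxylases that target hypoxia-inducible factor. Both clones were selected with G418 at 0.5 mg/ml, and 5 µg of total RNA from each was labelled with biotin for 1 Affymetrix array per clone. Each group is thus 1 clone and 1 array. No difference has a replicate check or a p-value, and differences between any pair of clones cannot be told apart from differences due to the transgene.

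The array covered 12393 genes by probe sets that are assigned to 1 symbol alone, and 38 of the 41 antioxidant genes were among them, with 68 probe sets. Prdx5 and Prdx6 had no probe set assigned, and the 5 probe sets of Prdx1 were shared with a predicted gene and were not used. A signal was read only above a floor, the 40th percentile of each array, which was a linear signal of 81.1 for the hPHD4 clone and of 67.8 for the control clone. Of the 38 genes, 35 had a probe set above both floors, as did 7452 of all genes. Mt2 lay above the floor in 1 clone, and Sod3 and Mgst1 lay below it in both. The value of a gene is its log2 ratio (the hPHD4 clone over the control clone), averaged over the probe sets above both floors. The transgene could not be checked, because 0 probe sets were assigned to P4htm, the mouse gene of PHD4, alone. All 7 osteoblast markers on the array were measured, with log2 ratios from −0.43 (Col1a2) to 1.09 (Ibsp), 4 above 0 and 3 below. Linear signals in the hPHD4 and control clones were, for example, 3039 and 2588 for the osteoblast factor gene Sp7. Of 5 markers each on the array, 1 endothelial, 0 epithelial and 1 muscle marker lay above both floors, as did 4 of 9 leukocyte markers. Where a sentence below gives a pair of signals, the hPHD4 clone comes first.

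NRF2, encoded by Nfe2l2, is a transcription factor that KEAP1 binds and directs to degradation until oxidants or electrophiles modify KEAP1. NRF2 then pairs with small MAF proteins at antioxidant response elements (ARE) and raises the genes for glutathione synthesis, thioredoxin reductase, haem oxygenase and quinone reduction. Metallothioneins are small cysteine-rich proteins that bind zinc and copper, and their genes are induced by the zinc sensor MTF1 at metal response elements (MRE). Peroxiredoxins, glutathione peroxidases and catalase remove hydrogen peroxide, which superoxide dismutases form from superoxide.

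Of the 35 measured genes, 31 or 88.6% lay within 1.5-fold, close to the 85.8% of all measured genes. Gpx3, a secreted glutathione peroxidase, was 2.37-fold higher in the hPHD4 clone and Gsto1, an omega-class glutathione transferase, was 2.33-fold higher. On its brighter probe set alone Gsto1 was 1.63-fold higher. Gstm2, a mu-class transferase, was 1.81-fold lower. Gsta4, an alpha-class transferase that conjugates lipid aldehydes, was only just past 1.5-fold lower, at a log2 ratio of −0.59. Nfe2l2 and Keap1 lay within 1.5-fold. Glutathione peroxidases and transferases, joined into 1 group with their values known, made up 12 of the 35 measured genes. Of the 12, Gpx3, Gsto1, Gstm2 and Gsta4 lay past 1.5-fold and 8 did not. Over the whole array 85.8% of measured genes did not. Of 12 antioxidant genes commonly named as NRF2 targets, listed with their values known, 10 were measured, from −0.59 (Gsta4) to 0.48 (Txnrd1). Of the 10, 8 lay above 0, as did 53.6% of all measured genes, and 1 lay past 1.5-fold. NRF2 targets of the wider list described below also lay outside this range, with Aldh3a1 at −1.70 and Me1 at 0.54. The spread between probe sets of 1 gene, pooled over all measured genes and divided by brightness, had an SD on the log2 scale of 0.40 for the dimmest, 0.37 for the middle and 0.28 for the brightest of 3 equal groups of genes. Of the 35 genes, 28 had a difference below that SD. The other 7 were the 4 genes past 1.5-fold, Gpx7, Txn1 and Txnrd1. Over all measured genes the median size of the difference was also below that SD, at 0.31, 0.24 and 0.20 in the dimmest, middle and brightest groups. This SD covers the error of single probe sets only, while 17 of the 35 gene values are means over at least 2. The share of all measured genes below that SD is not given.

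The promoter letters of these genes bear on the comparison, since members of 1 pathway are usually read together. RefSeq windows of build GRCm38.p6, from 250 bases before to 50 bases after a start site, were held for 35 of the 41 genes, in 45 windows. They were searched on both strands for the ARE core TGACNNNGC and for the MRE cores TGCACNC and TGCGCNC. The ARE core was found in 9 of the 45 windows, or 20%, against 12.4% of all 32851 windows. Each of the 9 windows belonged to a different gene. No window was held for Hmox1 or Gclc, and no ARE core was found for Nqo1. The 9 stretches are shown, each 25 bases 5′ to 3′ on the strand of the gene, with the match in capitals. They are given because the values of the measured genes among them follow. A match that begins with GC lies on the opposite strand.
Nfe2l2, chr2:75704887-75704911, minus strand: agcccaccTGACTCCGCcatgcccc
Srxn1, chr2:152105544-152105568, plus strand: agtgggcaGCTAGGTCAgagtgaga
Gstm5, chr3:107895804-107895828, plus strand: ccgcccacTGACCACGCggagggcg
Gclm, chr3:122245415-122245439, plus strand: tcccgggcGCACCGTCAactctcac
Prdx1, chr4:116685458-116685482, plus strand: gggaaagcGCTGAGTCAtcccccgt
Mgst1, chr6:138140463-138140487, plus strand: ggggcttgGCACGGTCAggaggcgg
Mt2, chr8:94172531-94172555, plus strand: agggggtgTGACTCAGCgcgggggg
Txnrd1, chr10:82859106-82859130, plus strand: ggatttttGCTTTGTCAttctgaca
Sod1, chr16:90220698-90220722, plus strand: caaggtggGCGTGGTCAgactcagg

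Of the 9 genes, 6 were measured above both floors, with log2 ratios from −0.21 (Gstm5) to 0.48 (Txnrd1) and a median of 0.02. The 25 measured genes with a window and no ARE core had a median of 0.05 and ran from −0.85 to 1.24. A match is a run of letters and not a shown binding site, and a window without one says nothing of more distant sites.

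The 250 bases before the start sites of Gpx3, Gsto1 and Gstm2 are shown because these are the measured genes farthest from equal signals. None of the 3 windows held the ARE core or an MRE core on either strand, and all letters are therefore in lower case. No window was held for Gsta4.
Gpx3, chr11:54902604-54902853, plus strand: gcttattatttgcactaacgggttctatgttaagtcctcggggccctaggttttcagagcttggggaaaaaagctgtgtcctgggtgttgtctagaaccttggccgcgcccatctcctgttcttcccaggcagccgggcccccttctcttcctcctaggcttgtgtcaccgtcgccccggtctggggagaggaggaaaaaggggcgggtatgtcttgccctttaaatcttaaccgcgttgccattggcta
Gsto1, chr19:47854723-47854972, plus strand: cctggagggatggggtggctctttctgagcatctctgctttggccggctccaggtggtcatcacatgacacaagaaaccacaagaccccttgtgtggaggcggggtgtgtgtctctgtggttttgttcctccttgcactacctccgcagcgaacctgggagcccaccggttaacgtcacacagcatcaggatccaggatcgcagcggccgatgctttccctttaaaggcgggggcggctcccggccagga
Gstm2, chr3:107986421-107986670, minus strand: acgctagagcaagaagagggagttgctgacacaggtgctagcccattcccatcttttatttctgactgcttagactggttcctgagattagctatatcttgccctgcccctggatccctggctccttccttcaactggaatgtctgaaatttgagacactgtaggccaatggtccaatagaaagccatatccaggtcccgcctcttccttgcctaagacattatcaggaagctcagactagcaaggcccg

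**Figure D1:**
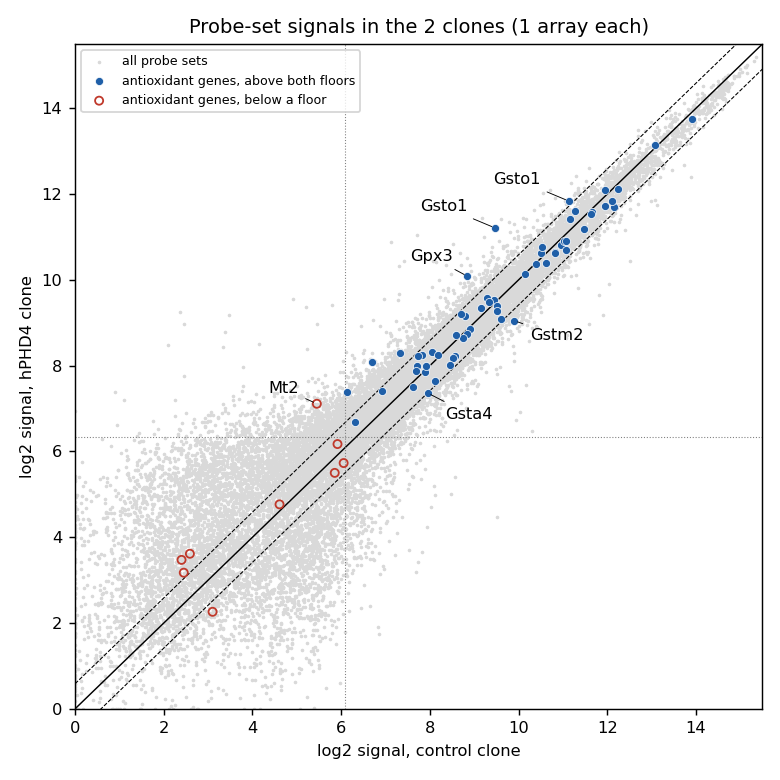
Log2 signal of each probe set in the control clone (horizontal axis) and the hPHD4 clone (vertical axis), 1 array each, with antioxidant genes filled where they lie above both floors and open where they do not. Most filled points, those of Nfe2l2, Hmox1 and Nqo1 among them, sit between the dashed 1.5-fold lines around the line of equal signal, while Gpx3 and both probe sets of Gsto1 lie above the upper line and Gstm2 lies below the lower one. A filled point each of Txn1, Txnrd1 and Srxn1 also lies above the upper line, and dotted lines are the floors.

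Among the regulators, Nfe2l2 had linear signals of 1120 and 1130, a log2 ratio of −0.01. The signals were nearly equal. Keap1 had a brighter probe set at 651.2 and 573.6 and a dimmer one at 199.8 and 278.6, for a gene value of −0.15. Its probe sets lay on opposite sides of 0, at 0.18 and −0.48.

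The haem and quinone enzymes lay within 1.5-fold. Hmox1, the inducible haem oxygenase and an NRF2 target, had signals of 317.9 and 266.7, a log2 ratio of 0.25. Hmox2, the constitutive enzyme, had 1582 and 1458, at 0.12. Nqo1, an NRF2 target that reduces quinones, had 737.8 and 693.9, at 0.09. Each of the 3 lay slightly above 0 and below the SD of probe sets of its brightness.

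Glutathione synthesis and recycling showed the same small differences. Gclm, the modifier subunit of glutamate-cysteine ligase, had signals of 674.1 and 734.5, a log2 ratio of −0.12. Gclc, the catalytic subunit, stood at 0.16, with probe sets at 0.43 and −0.12. Glutathione synthetase, Gss, stood at −0.05 and glutathione reductase, Gsr, at 0.13. Glrx, a glutaredoxin that removes glutathione from protein thiols, stood at −0.18 with probe sets at 0.17 and −0.53. The median of the 5 genes was −0.05, against 0.03 over all measured genes.

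The thioredoxin system had the highest median of the role groups with at least 3 measured genes, 0.23, and 5 of its 6 genes lay above 0. The gene values of Txn1, Txnrd1 and Srxn1 rested on probe sets that disagreed. Txn1, the cytosolic thioredoxin, had a probe set with signals of 13745 and 15303, and another with 314.5 and 160.9. The first gave a log2 ratio of −0.15 and the second 0.97, and the gene value was 0.41.

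Txnrd1, the cytosolic thioredoxin reductase and an NRF2 target, had the signal pairs 2759 and 2272, 427.6 and 458.7, and 167.5 and 69.7. The last control signal lay just above the floor of 67.8, and that probe set gave the log2 ratio of 1.26 against 0.28 and −0.10 for the others. Srxn1, sulfiredoxin, which repairs over-oxidised peroxiredoxins, was at −0.34 and −0.35 on its brighter probe sets and at 1.39 on the dimmest one above both floors, with signals of 270.0 and 103.0. Read from its brightest probe set alone, Txn1 stood at −0.15 and Srxn1 at −0.34, and the median of the group was −0.12. With the floor at the 60th percentile Txnrd1 stood at 0.09 and the median of the group at −0.15.

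The remaining genes of the system ran from −0.18 to 0.23. Txn2, the mitochondrial thioredoxin, had 3 probe sets between −0.21 and −0.14, the closest agreement among the antioxidant genes with more than 1. Its reductase Txnrd2 stood at 0.23, with probe sets at 0.50 and −0.04. Txnip, which binds and inhibits thioredoxin, stood at 0.09, with signals of 402.0 and 429.5 on the brighter probe set.

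The 3 measured peroxiredoxins lay below 0. Prdx2, a cytosolic enzyme, had signals of 3356 and 3952, a log2 ratio of −0.24. Prdx3, of mitochondria, had 4422 and 4871, at −0.14. Prdx4, of the endoplasmic reticulum, had 3321 and 4582 on its brightest probe set, at −0.46. Its other probe sets lay on opposite sides of 0, at −0.43 and 0.36, and its 3 probe sets averaged −0.18. The median of the 3 peroxiredoxins, −0.18, stayed below 0 under every processing alternative run.

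Gpx3 stood apart from the other glutathione peroxidases in size. Its single probe set had a signal of 1087 in the hPHD4 clone against 459.5 in the control, a log2 ratio of 1.24, and 99.2% of all measured genes had a lower ratio. Both signals were well clear of the floors, and the difference was larger than the probe-set SD of 0.28 for its brightness. Gpx1, the abundant cytosolic enzyme, had 4350 and 3978, at 0.13. Gpx4, which reduces lipid hydroperoxides in membranes, stood at 0.04, with probe sets at −0.26 and 0.33. Gpx7, of the endoplasmic reticulum, had 1648 and 2140, at −0.38. Gpx3 alone in this group lay past 1.5-fold.

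The measured superoxide dismutases and catalase had gene values near 0. Sod1, the copper and zinc enzyme of the cytosol, had signals of 3056 and 3221 on its brighter probe set, and its gene value was 0.05. Sod2, the manganese enzyme of mitochondria, had 2978 and 3175 on its brightest probe set and a gene value of 0.01. Its brighter probe sets stood at −0.09 and −0.27. The dimmest stood at 0.38, with signals of 103.0 and 78.9 near the floors. Catalase, Cat, stood at 0.13 with probe sets at −0.24 and 0.49. Sod3, the extracellular enzyme, was below the floor in both clones, with signals of at most 12.3.

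The glutathione transferases held both ends of the range. Gsto1 had signals of 3658 and 2249 on its brighter probe set and of 2369 and 709.7 on the other. Both were higher in the hPHD4 clone, at log2 ratios of 0.70 and 1.74, and the gene value was 1.22. These probe sets differed by more than most, with an SD of 0.73 against 0.28 for genes of their brightness. The brighter one alone gives a fold of 1.63, and the other is of a type that can share targets with other genes. Gsto1 lies on chromosome 19, where the median of 281 measured genes was 0.31; with that median subtracted its value was 0.91.

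Gstm2 had a signal of 529.4 in the hPHD4 clone against 957.4 in the control, a log2 ratio of −0.85 on its single probe set. Only 1.60% of all measured genes had a lower ratio. Gstm1 and Gstm5, close relatives of Gstm2 on chromosome 3, stood at 0.09 and −0.21. The brighter probe sets of Gstm1 stood at −0.12 and −0.16 and its dimmer ones at 0.13 and 0.50. The mu-class genes are similar in sequence, so the share of signal that belongs to each is uncertain. Gsta4 had signals of 164.6 and 247.0, a log2 ratio of −0.59; the gene next to it inside 1.5-fold was Txnrd1, at 1.40-fold. The difference of Gsta4 compares with an SD of 0.40 for dim genes.

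The other transferases were level. Gstp1, of the pi class, had signals of 9018 and 8681, at 0.05. Gstt1 stood at 0.08 and the microsomal Mgst3 at 0.05. Mgst1 was below the floor in both clones, at signals of at most 57.9.

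Of the metallothioneins, Mt1 had signals of 1748 and 1482, a log2 ratio of 0.24 on a probe set whose type can share targets with related genes. Its other probe set was below the floor in both clones. Mt2 had signals of 138.3 and 43.7, the latter under the floor. Its single probe set was therefore given as a bound: the hPHD4 clone was at least 2.04-fold higher, its signal taken over the floor of the control array. With the floor at the 20th percentile it was measured, at a log2 ratio of 1.66. Over all genes 16.4% were past 1.5-fold higher with that floor. With dim signals on both arrays raised to 1 common floor of 81.1, the log2 ratio of Mt2 was 0.77, smaller than the bound above. Over all genes 4.87% were past 1.5-fold higher with that setting.

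The metallothionein start regions are shown because MTF1 acts through MRE there. Within 250 bases before and 50 after the start, Mt2 had 4 MRE cores, the most among the 45 windows of these genes. Mt1 and Gclm had 3 each. An MRE core was found in 14 of the 45 windows, or 31.1%, against 25.7% of all windows. The number of cores per window is not given for all windows. For Mt1 each match is shown in capitals with 8 bases on either side, in order along the gene.
Mt1, chr8:94179058-94179080, plus strand: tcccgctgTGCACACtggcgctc
Mt1, chr8:94179083-94179105, plus strand: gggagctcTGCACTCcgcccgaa
Mt1, chr8:94179101-94179123, plus strand: ccgaaaagTGCGCTCggctctgc
For Mt2 the 250 bases before the start are shown, with 3 MRE cores and the ARE core in capitals.
Mt2, chr8:94172368-94172617, plus strand: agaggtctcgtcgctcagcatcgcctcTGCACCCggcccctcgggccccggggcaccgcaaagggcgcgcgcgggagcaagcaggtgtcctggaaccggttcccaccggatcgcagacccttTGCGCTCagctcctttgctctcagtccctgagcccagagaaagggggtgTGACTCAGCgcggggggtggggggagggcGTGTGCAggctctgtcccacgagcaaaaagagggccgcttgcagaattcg

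**Figure D2:**
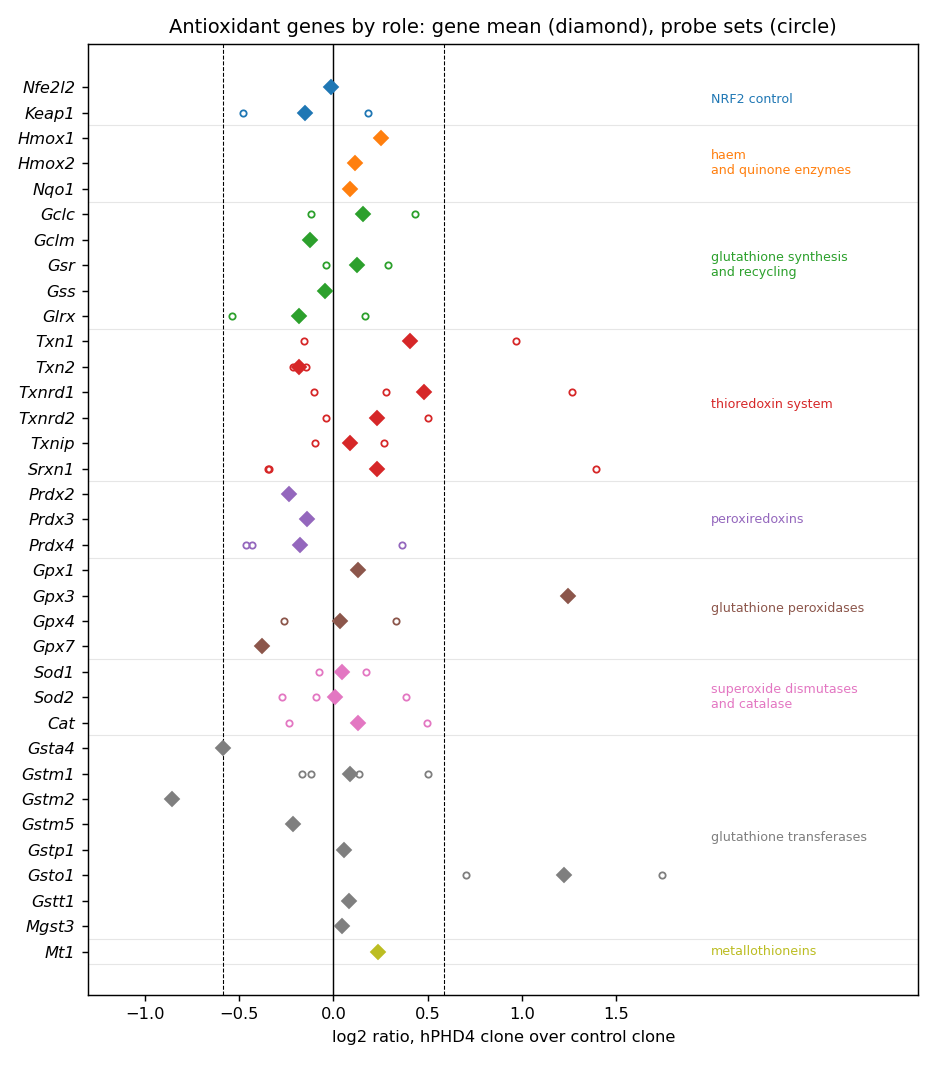
Log2 ratio, hPHD4 clone over control clone (horizontal axis), of the 35 measured genes by role, with the gene mean as a diamond and each probe set as a circle where there is more than 1. Gpx3 at 1.24 and Gsto1 at 1.22 lie past the upper dashed 1.5-fold line and Gstm2 at −0.85 past the lower one, with Gsta4 on it.

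Counted together, 2 of the 35 genes, or 5.71%, reached 1.5-fold higher in the hPHD4 clone, as did 8.94% of all measured genes. Another 2 were at least 1.5-fold lower, against 5.22% of all genes. After quantile normalization the shares over all genes were 6.66% higher and 6.43% lower, and the same 4 antioxidant genes lay past 1.5-fold. At a 2-fold threshold Gpx3 and Gsto1 were left, against 1.89% of all genes higher, and 0 genes were lower, against 0.980%. Gsto1 stood at 0.70, below 2-fold, when probe sets of types that can share targets were left out. The median log2 ratio was 0.05, with 22 genes above 0, or 62.9%, against 53.6% over all genes. The median size of the difference, without its sign, was 0.15 on the log2 scale, against 0.24 over all genes. The antioxidant genes are also bright: 22 of the 35 lay in the brightest of the 3 groups, where the sizes were 0.13 for these genes and 0.20 for all, and in the middle group they were 0.15 for 9 genes and 0.24 for all.

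Probe sets of the same antioxidant gene often lay on opposite sides of 0. This was so for 15 of the 17 genes with at least 2 probe sets above both floors, or 88.2%, against 47.3% of 2800 such genes over the whole array. Txn2 and Gsto1 were the exceptions. Among genes within 1.5-fold, where opposite signs are easier to reach, it was 93.8% of 16 against 51.3%. The median range between the highest and the lowest probe set of a gene was 0.66 for the antioxidant genes and 0.38 for all genes. In 12 of the 17 genes the dimmest probe set had a higher ratio than the brightest, by a median of 0.36 over all 17; over all genes this was so in 52.6%, by a median of 0.03. The medians were 0.29 for the dimmest and −0.09 for the brightest probe sets. Without probe sets of types that can share targets, Txnrd1 stood at 0.09, Gpx4 at −0.26 and Prdx4 at −0.45. Txn1 then stayed at 0.41, and Srxn1 stood at 0.52. The part of brightness or of probe-set type in the values of Txn1, Txnrd1 and Srxn1 was not tested. Gpx3, Gstm2 and Gsta4 each had 1 probe set and could not be compared in this way.

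**Figure D3:**
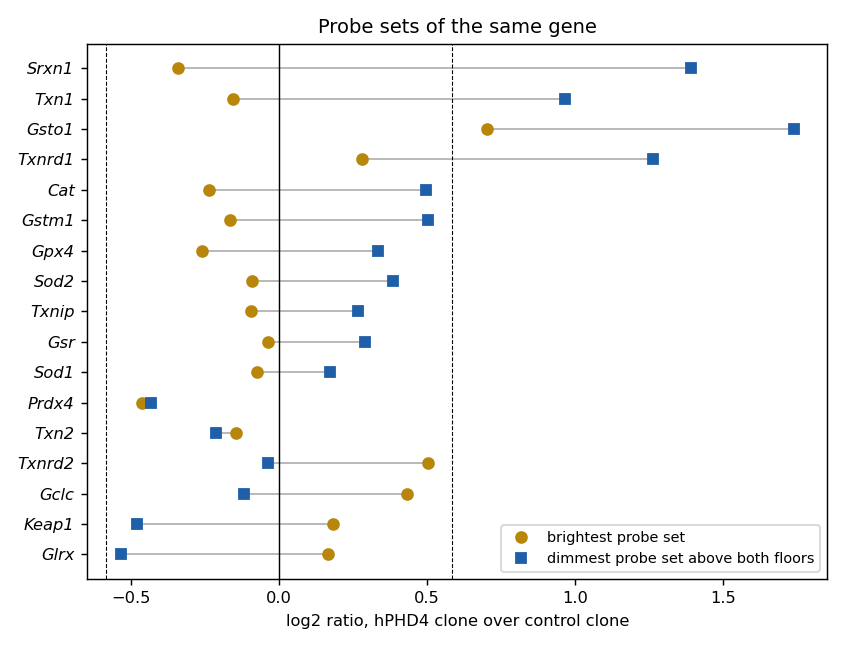
Log2 ratio, hPHD4 clone over control clone (horizontal axis), of the brightest (circle) and dimmest (square) probe set above both floors for each of the 17 genes with at least 2. The square lies to the right of the circle in 12 genes, farthest for Srxn1, Txn1, Gsto1 and Txnrd1; dashed lines mark 1.5-fold.

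Other genes of the pathway were taken from a list of 136 genes in 10 groups, of which 114 were on the array and 81 measured. Of these, 3 or 3.70% reached 1.5-fold higher in the hPHD4 clone, 7 or 8.64% reached 1.5-fold lower, against 8.94% and 5.22% of all measured genes, and the median log2 ratio was 0.00. The partners and regulators of NRF2 lay within 1.5-fold, with the repressor gene Bach1 at 0.04, the small MAF genes Mafg and Mafk at −0.18 and −0.13, Cul3, the ubiquitin ligase scaffold used by KEAP1, at 0.21, and the autophagy receptor gene Sqstm1 at 0.11. Slc7a11, the cystine transporter and another NRF2 target, was not above both floors.

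The largest difference of the list was that of Aldh3a1, an aldehyde dehydrogenase known as an NRF2 and aryl hydrocarbon receptor target. Its signals were 222.9 and 726.0, a log2 ratio of −1.70, or 3.26-fold lower. Cbs and Cth encode the consecutive enzymes that turn homocysteine into cysteine, and they lay on opposite sides. Cbs stood at 1.25, with signals of 204.5 and 86.1, the latter close to the floor. Cth stood at −0.80, with signals of 1410 and 2461.

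NADPH supply had 1 gene past 1.5-fold. Idh1, the cytosolic isocitrate dehydrogenase that makes NADPH, stood at 0.98, with signals of 2235 and 898.1 on its brighter probe set, and both of its probe sets were higher in the hPHD4 clone. Me1, malic enzyme and an NRF2 target, stood at 0.54. Of the other glutathione transferases, Gstk1 at −0.95 and Gstz1 at −0.99 were lower and the microsomal Mgst2 was higher, at 0.98. The hPHD4 signal of Gstk1, 84.8, was close to the floor of 81.1.

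Ggct, which splits gamma-glutamyl peptides, stood at −0.66. Park7, an oxidant-sensing protein also known as DJ-1, had signals of 4648 and 6670 on its brighter probe set and a gene value of −0.68, with both probe sets lower in the hPHD4 clone. Pstk, a kinase of selenocysteine tRNA synthesis, stood at −0.71. A further 8 genes lay above the floor in 1 clone only, and 4 of them had a bound of at least 1.5-fold, all higher in the hPHD4 clone. Of these, Gstm4, another mu-class transferase, was at least 2.41-fold higher, with signals of 163.2 and 49.3. Slc30a1, a zinc exporter induced through MTF1, was at least 2.29-fold higher, with signals of 155.3 and 41.9. Gstt3 was at least 1.69-fold and Cyp1b1 at least 1.52-fold higher. All 4 were dim, as Mt2 was. Dim genes of the whole array also leaned this way. With the floor at the 20th percentile, 16.4% of all genes were at least 1.5-fold higher and 6.64% lower. These shares are of ratios, and no count of bounds over all genes is given. The floor was 67.8 for the control clone and 81.1 for the hPHD4 clone, so a higher bound was easier to reach. With dim signals raised to 1 common floor, 5 genes of the wider list were higher and 5 lower, against 4.87% and 3.06% of all genes. In metal handling, 14 genes were measured in both clones and 0 of those passed 1.5-fold. They ran from the zinc transporter Slc39a7 at −0.55 to Mtf1, the zinc sensor that acts at MRE, at 0.57, with Ccs, the copper chaperone of Sod1, at 0.55. Of the sources of oxidants, the NADPH oxidase subunit genes Cyba and Ncf1 were measured, at −0.09 and −0.17.

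**Figure D4:**
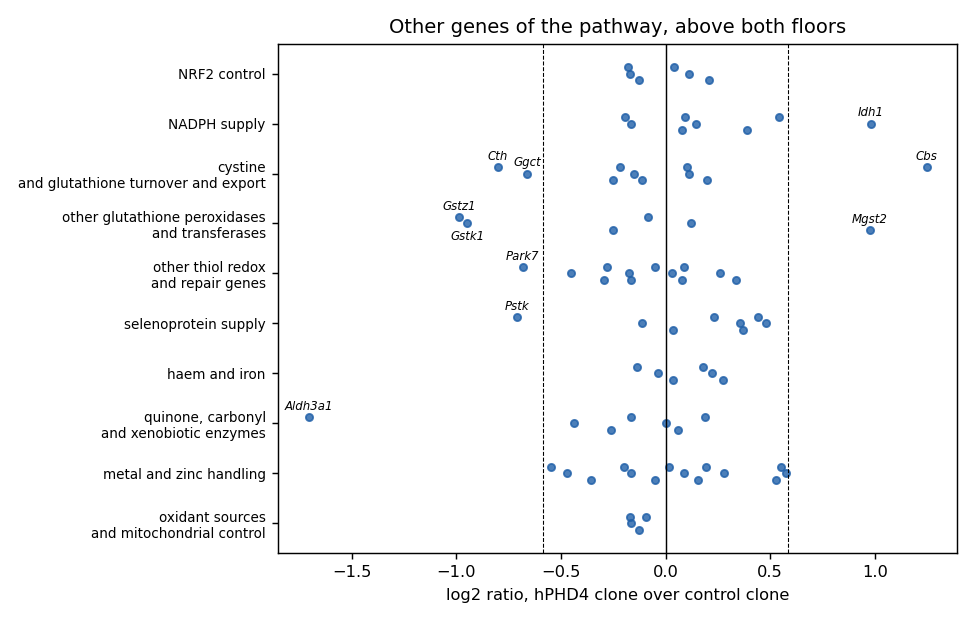
Log2 ratio, hPHD4 clone over control clone (horizontal axis), of the 81 measured genes of the wider list, 1 point per gene, in 10 groups. The 10 genes past the dashed 1.5-fold lines are named, with Aldh3a1 at −1.70 the lowest and Cbs at 1.25 the highest.

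**Figure D5:**
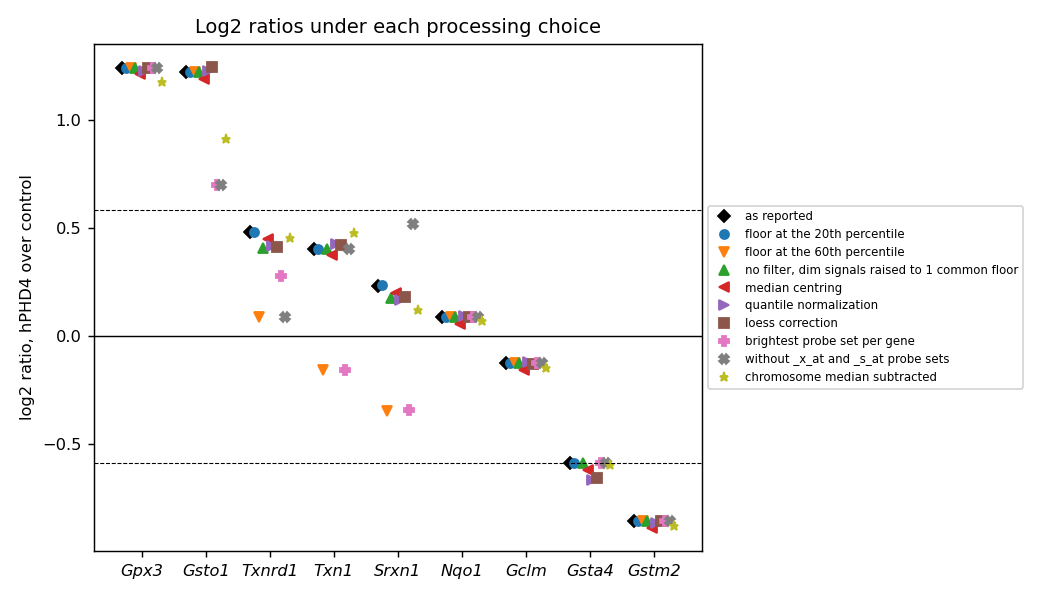
Log2 ratio, hPHD4 clone over control clone (vertical axis), of 9 antioxidant genes as reported and under 9 processing alternatives, 1 symbol each. Gpx3 and Gstm2, with 1 probe set each, keep nearly the same value, Gsto1 lies between 0.70 and 1.25, and Txn1 and Srxn1 lie on both sides of 0.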

How the data were processed

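The authors deposited a log2 signal for every probe set, computed with MAS5 according to the labels and processing notes. The sources used here do not give a version, settings or genome build. Values showed the log base: as powers of 2, both arrays had a mean of 500.2 once the highest and lowest 2% were trimmed. Of 22690 probe sets, 64 were controls, 20380 had 1 gene symbol in the platform annotation and 691 several; 20351 were found by gene number in a RefSeq table of GRCm38.p6.

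No scaling was added. Probe sets above the 40th percentile of the non-control probe sets on both arrays were kept, and a gene took their mean log2 ratio. A gene above the floor on 1 array only was given as a bound where that bound passed 1.5-fold. The steps were run on simulated data with the same noise at every brightness and shifts larger than 1.5-fold. That check does not cover the larger spread of dim signals or differences near 1.5-fold. Alternatives changed the floor, filter, scaling, choice of probe set, chromosome median and fold threshold. All 41 genes are described by role, those past 1.5-fold or farthest in their group with signals. The genes and lists were chosen with earlier results of these data known. Analyses used Python 3.11.15, numpy 2.4.6 and pandas 2.3.3. With 2 arrays, their number limits the precision.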

Additional observations from a re-analysis of the deposited data

How the results depend on the processing

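No paired analysis was possible because each group holds 1 array. Over the alternatives run, Gpx3 ranged from 1.17 to 1.24, Gsto1 from 0.70 to 1.25, Gstm2 from −0.89 to −0.85 and Gsta4 from −0.66 to −0.59, and Gsta4 was not measured at a 60th-percentile floor. Lower genes then numbered 1, and 0 at 2-fold. The median of the thioredoxin system was −0.15 at that floor and −0.12 when the brightest probe set was taken; that of the metallothioneins was 0.95 at a floor of the 20th percentile, where Mt2 enters. In the wider list the count of higher genes was 10 at a 20th-percentile floor, 1 at a 60th-percentile floor and 5 with dim probe sets kept, and the count of lower genes was 3 at the 60th. Over all genes 1579 were at least 1.5-fold higher and 638 lower at the 20th percentile, and 251 and 244 at the 60th, against 666 and 389. None of the 4 antioxidant genes past 1.5-fold changed sign under the alternatives in which it was measured. Gpx3, Gstm2 and Gsta4 each had 1 probe set. Changes of floor, filter or probe-set choice could therefore only keep their values or drop the gene, and are no check of them. Values near the floor are the least reliable.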

Other observations

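The 5 selenoproteins among the measured antioxidant genes, grouped with their values known, all had log2 ratios above 0, where 53.6% of all measured genes did. They were Gpx4 at 0.04, Gpx1 at 0.13, Txnrd2 at 0.23, Txnrd1 at 0.48 and Gpx3 at 1.24. Gpx3 alone was past 1.5-fold, and the probe sets of Gpx4, Txnrd1 and Txnrd2 lay on both sides of 0. In the wider list, 6 of the 8 measured genes in the selenoprotein supply group were above 0, with Selenos at 0.48 and Selenow at 0.44. Selenof was at −0.11 and Pstk at −0.71. The selenoprotein genes Txnrd3 and Msrb1, listed in another group, were both below 0, at −0.17 each.

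By compartment, likewise grouped with values known, both peroxidases of the endoplasmic reticulum lay below 0, Gpx7 at −0.38 and Prdx4 at −0.18. A probe set of Prdx4 lay above 0, at 0.36. The 4 mitochondrial genes, Txn2, Txnrd2, Prdx3 and Sod2, ran from −0.18 to 0.23, with 2 on each side of 0. Prdx3 lies on chromosome 19 and stood at −0.45 once the median of that chromosome was subtracted.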
